A study of Mus musculus with 20 samples.

Results

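The genes described here are 36 potassium channel genes of 37620 listed genes, chosen by gene family and matched by Ensembl identifier. They are 14 inward-rectifier genes (Kcnj), 12 two-pore domain genes (Kcnk), 4 genes of the large-conductance calcium-activated channel (Kcnm), 4 genes of the small and intermediate conductance calcium-activated channels (Kcnn) and 2 genes of the sodium-activated channels (Kcnt). RNA was sequenced from sensory neurons sorted out of the dorsal root ganglia (DRG) of adult mice, with L4-L5 ganglia as the lumbar group and L6-S1 ganglia as the sacral group, in 5 male and 5 female donors, giving 20 libraries. All mice were aged 6 to 8 weeks and homozygous for Trpv1tm2Bbm, an allele in which the Trpv1 locus drives alkaline phosphatase and nuclear β-galactosidase, so that every group shared the same reporter and no group lacked it. Cells were loaded with a fluorogenic β-galactosidase substrate and the brightest were kept by flow cytometry, which defines the population by reporter activity and not by cell identity. The title of each library carries a pair of animal numbers, and the same pair occurs once at each level, so a pair is called a donor here. The design asks how channel expression in Trpv1 neurons differs between sacral and lumbar ganglia, and whether sex matters. Lumbar ganglia supply the hindlimb, and sacral ganglia supply the pelvic viscera together with somatic targets. The study states that somatic neurons far outnumber visceral ones in the sacral ganglia.

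Potassium channels set the resting potential and return the membrane towards it after an action potential, so they limit how readily a nociceptor fires. Inward rectifiers pass current near rest and include channels opened by G proteins (GIRK), channels closed by ATP, and channels typical of glia. Two-pore channels give the background leak that is open at rest, and many of them are tuned by stretch, heat or acid. The BK, SK and IK channels (Kcnm and Kcnn genes) open with intracellular calcium, and the Slack and Slick channels (Kcnt genes) with intracellular sodium.

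Values are log2 RPKM as deposited, that is reads scaled by exon length and by library, on a log2 scale, with the same median in every library, so levels of different genes can be compared per length. Differences are given as lumbar minus sacral on the log2 scale, so a negative value means a higher level in sacral ganglia. They were tested with limma over all genes, with the donor as a random block, and a gene was called at a Benjamini-Hochberg adjusted p of at most 0.05. Reads on genes ran from 43499216 to 61822780 in lumbar and from 46044602 to 65542378 in sacral libraries. The sorted cells carried nociceptor transcripts, with Calca at 9.98 in lumbar and 9.82 in sacral libraries and Tac1 at 9.21 and 9.31. Neither was called between levels (differences 0.16 and -0.10). The other 5 of 7 nociceptor markers were higher in sacral, among them Trpv1 itself, at 3.74 in lumbar and 4.70 in sacral libraries (difference -0.96, adjusted p = 3.6e-05). Of 5 large neuron markers 4 were tested and 2 were higher in lumbar, Spp1 and, on 0 to 113 reads a library, Pvalb. The others tested, Ntrk3 (difference -0.27) and Calb1 (0.13), were not called. Markers of other cells moved with the level. All 10 satellite and Schwann cell markers were detected in all 20 libraries, 9 of them were higher in lumbar and their summed level ran from 2080 to 4070 RPKM in lumbar and from 1300 to 2160 RPKM in sacral libraries. Their mean was higher in lumbar in 10 of 10 donors, by 0.90 ± 0.23 (SD). Of the 10 mural and endothelial markers 8 were higher in lumbar and 1 in sacral, with summed levels of 96.7 to 188 RPKM in lumbar and 100 to 205 RPKM in sacral libraries. The one higher in sacral was Rgs5, at 6.76 in lumbar and 7.13 in sacral, the most abundant of these markers and so the main part of the sum. Of the 10 macrophage markers 5 were tested and 3 were higher in lumbar, with summed levels of only 3.97 to 18.1 RPKM in lumbar and 2.63 to 5.93 RPKM in sacral libraries, and Cx3cr1 and C1qa had reads in 13 of 20 libraries each. All 5 pan-neuronal markers went the other way and were higher in sacral, by 0.22 to 0.65, with summed levels of 608 to 996 RPKM in lumbar and 878 to 1210 RPKM in sacral libraries. In such sorted bulk samples, fewer cells of a type and less RNA per cell cannot be told apart.

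Of the members, 12 were higher in sacral and 6 in lumbar ganglia. The sacral group held GIRK channel subunits (Kcnj3, Kcnj6, Kcnj9), mechanosensitive and acid-sensitive leak channels (Kcnk2, Kcnk3, Kcnk4, Kcnk10), the small conductance calcium-activated channels Kcnn1 and Kcnn2, the BK subunit Kcnmb2, the inward rectifier Kcnj12 and the sodium-activated channel Kcnt1. The lumbar group held Kcnj10 and Kcnj16, which pair in glial inward rectifiers, together with Kcnj13, Kcnk5, Kcnmb4 and Kcnn4. These 18 calls were among 29 members tested, or 62.1%, where 45.5% of all 16304 genes tested were called. The share of members higher in sacral was 41.4%, with 30.3% over all genes, and the share higher in lumbar was 20.7%, with 15.2% over all genes. The median difference of the tested members was -0.39 and that of all genes tested was -0.11. The 7 members that fell below the level filter were Kcnj4, Kcnj5, Kcnj8, Kcnj14, Kcnj15, Kcnk6 and Kcnk7. Of the 29 tested, Kcnj6, Kcnj9 and Kcnj11 passed the filter only through sacral groups and Kcnj13 only through a lumbar group, so their place among the tested genes was not independent of the direction of their difference. Of the 25 that passed at both levels, 15 were called, and the share among all genes that passed at both levels was not computed.

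**Figure D1:**
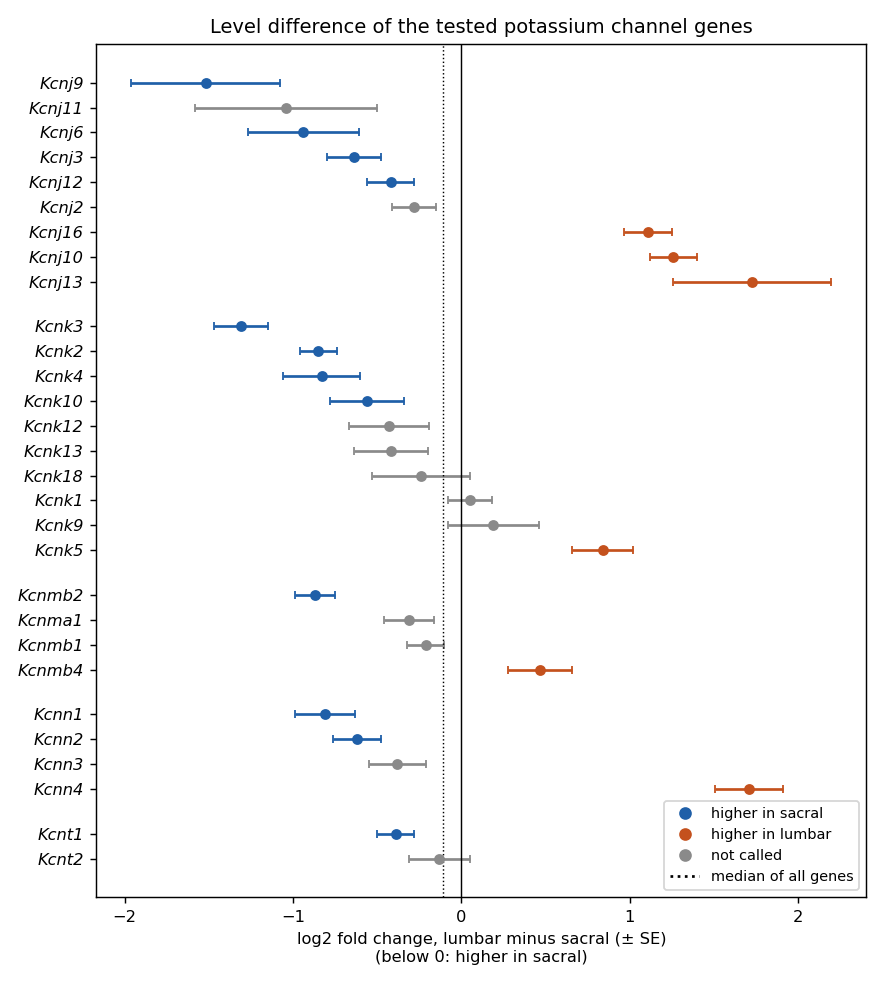
Difference between lumbar and sacral ganglia (log2 fold change on the x axis, lumbar minus sacral, with its standard error) for the 29 tested members, grouped by subfamily, over 20 libraries. The 12 blue points lie left of 0 and were higher in sacral, the 6 orange points lie right of 0 and were higher in lumbar, the grey points did not pass the test, and the dotted line is the median of all genes, at -0.11.

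Before the separate channels, the levels show which members were most abundant in the libraries of sorted cells, which also held glial transcripts. Kcnj10 stood first, at 4.91 ± 0.77 (SD, n = 20), followed by the BK subunit Kcnmb1 at 4.18 ± 0.35 and the sodium-activated channel Kcnt1 at 3.02 ± 0.42. The next were Kcnk2 at 2.85 ± 0.53, Kcnmb2 at 2.59 ± 0.54, Kcnj12 at 2.50 ± 0.41, Kcnk1 at 2.43 ± 0.37, Kcnk3 at 2.38 ± 0.77 and Kcnma1 at 2.24 ± 0.41. From Kcnt1 down to Kcnj4 each neighbour in this order lay within 1 SD of the next, the larger of both SDs. Kcnj10 lay well above Kcnmb1 in lumbar, at 5.54 ± 0.46 against 4.07 ± 0.37, and level with it in sacral, at 4.27 ± 0.39 against 4.28 ± 0.31. The order was not the same at both levels: Kcnj10 ranked 1 in lumbar and 2 in sacral, behind Kcnmb1, Kcnk3 ranked 11 in lumbar and 5 in sacral, Kcnj16 ranked 6 in lumbar and 14 in sacral, and Kcnn4 ranked 8 in lumbar and 18 in sacral. At the bottom, Kcnj5 (GIRK4) had reads in 7 of 20 libraries, Kcnk7 in 10, Kcnj14 in 14 and Kcnk6 in 17. Kcnj5 never exceeded 36 reads in a library, against 4733 to 16904 reads for Kcnj10.

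**Figure D2:**
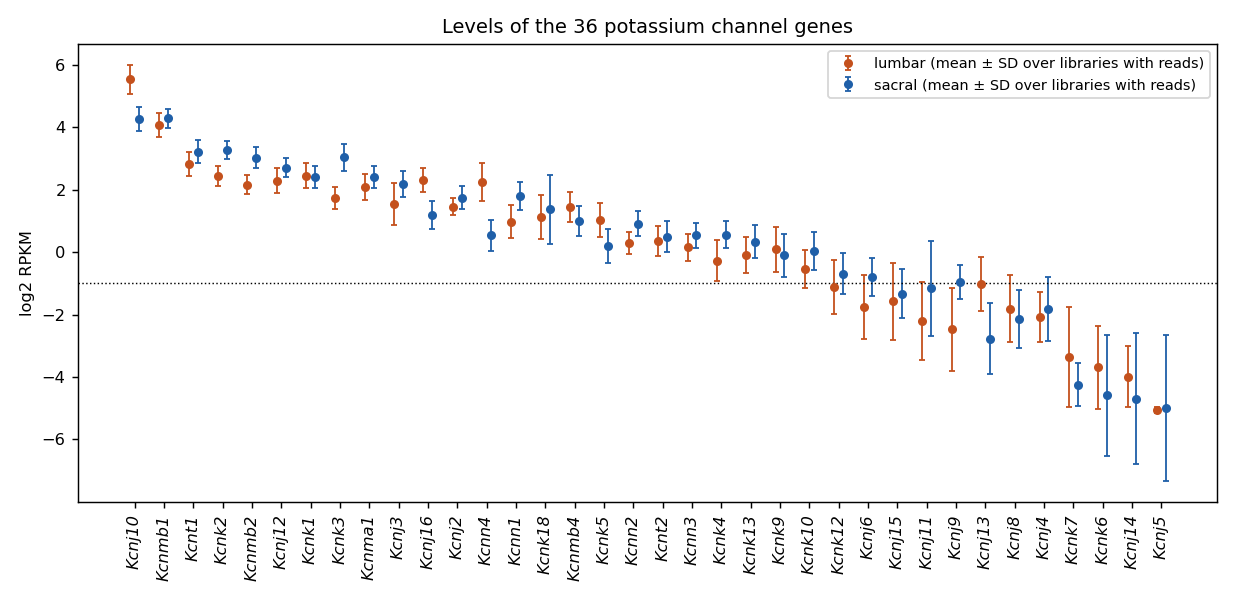
Mean level (log2 RPKM on the y axis) of the 36 members in lumbar (orange) and sacral (blue) libraries, ordered by the mean over all libraries, with bars of 1 SD over the libraries that had reads. Kcnj10 stands first at 4.91 and the dotted line marks the filter at -1, and the means of the 7 untested members lie below it.

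Among the inward rectifiers, 3 of the 4 G protein-gated subunits were called higher in sacral ganglia, where 30.3% of all genes tested were. Of these 3, Kcnj6 and Kcnj9 had passed the filter only through sacral groups, and the fourth subunit, Kcnj5, was not tested. Kcnj3 (GIRK1), which forms heteromeric channels with the other GIRK subunits, was the most abundant of them, at 1.54 ± 0.66 in lumbar and 2.18 ± 0.43 in sacral (SD, n = 10 each). The sacral level was higher in 10 of 10 donors, by 1.56-fold (difference -0.64, SE 0.16, adjusted p = 0.0031 in limma). Exons of Kcnj3 overlap those of Gm17595 on the opposite strand, and whether the counting used strand is not given in the sources used here. Kcnj6 (GIRK2) had lumbar values from -3.35 to -0.30 with a median of -1.61 and sacral values from -2.02 to 0.44 with a median of -0.77. The ranges overlapped, and 8 of 10 donors were higher in sacral (difference -0.94, SE 0.33, adjusted p = 0.025). This call was lost in 6 of the 10 fits that each left out 1 donor, those without male donors 3, 4 and 5 and without female donors 1, 3 and 5, where the difference ran from -1.18 to -0.82 over all 10 fits. Kcnj9 (GIRK3) ran from -4.76 to -0.38 with a median of -2.39 in lumbar libraries and from -2.02 to -0.18 with a median of -0.89 in sacral libraries. The lumbar libraries were the more scattered, and 8 of 10 donors were higher in sacral, by 2.87-fold (difference -1.52, SE 0.44, adjusted p = 0.0082). Kcnj9 rested on 7 to 195 reads a library and Kcnj6 on 25 to 407, and the size of their differences depended on the pseudocount. With 0.1 RPKM added the difference was -1.03 for Kcnj9 and -0.71 for Kcnj6, and with 1 RPKM added it was -0.31 and -0.25, all still called. Relative to Kcnj3 in the same library, Kcnj9 lay at -4.00 ± 1.73 in lumbar and -3.12 ± 0.50 in sacral, and Kcnj6 at -3.29 ± 1.02 and -2.98 ± 0.59, so the ratio of subunits differed by less than 1 SD of the donor differences in both cases (-0.88 ± 1.90 for Kcnj9 and -0.30 ± 1.04 for Kcnj6).

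The glial-type inward rectifiers had the opposite direction. Kcnj10 encodes Kir4.1, the main potassium-buffering channel of satellite glia, and its lumbar values ran from 4.71 to 6.27 with a median of 5.51, against 3.74 to 5.11 with a median of 4.23 in sacral libraries. Only the lowest lumbar library fell inside the sacral range, and every one of the 10 donors was higher in lumbar, by 0.78 to 2.04. The fold was 2.40 (difference 1.26, SE 0.14, adjusted p = 1.6e-06). Kcnj16 encodes Kir5.1, which conducts when assembled with Kir4.1, and it ran from 1.85 to 3.08 with a median of 2.29 in lumbar and from 0.52 to 2.16 with a median of 1.19 in sacral libraries. It too was higher in lumbar in 10 of 10 donors, by 2.16-fold (difference 1.11, SE 0.14, adjusted p = 4.7e-06). The ratio of Kcnj16 to Kcnj10 was nearly the same at both levels, at -3.22 ± 0.18 in lumbar and -3.07 ± 0.25 in sacral. Relative to the mean of the 10 glial markers of the same library, Kcnj10 was higher in lumbar in 10 of 10 donors, by 0.37 ± 0.32, and Kcnj16 in 6 of 10, by 0.22 ± 0.37. With that glial mean as a covariate, the differences were 0.69 for Kcnj10 (adjusted p = 0.21) and 0.67 for Kcnj16 (adjusted p = 0.25).

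Kcnj9 and Kcnj10 are neighbours on chromosome 1. In mm9 Kcnj9 lies on the minus strand at chr1:174251164-174259394 and Kcnj10 on the plus strand at chr1:174271341-174304216, so that they point away from each other with 11946 bases between them, while one was higher in sacral and the other in lumbar. The 250 bases before each start are shown because the 2 genes share this interval and differ in direction. They are RefSeq sequences on GRCm38.p6, a later build than that of the data, at chr1:172329323-172329572 (minus strand) for Kcnj9 and chr1:172340960-172341209 (plus strand) for Kcnj10. Capitals mark matches on either strand to any of 5 motifs searched, a GC box (GGGCGG), a CRE (TGACGTCA), a TATA box (TATAAA), a SOX site (AACAAAG) and an E box (CAGCTG).
Kcnj9: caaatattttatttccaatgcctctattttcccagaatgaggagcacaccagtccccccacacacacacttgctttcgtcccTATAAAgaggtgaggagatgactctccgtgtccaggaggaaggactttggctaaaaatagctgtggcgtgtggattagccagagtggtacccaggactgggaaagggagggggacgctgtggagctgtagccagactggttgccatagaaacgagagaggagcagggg
Kcnj10: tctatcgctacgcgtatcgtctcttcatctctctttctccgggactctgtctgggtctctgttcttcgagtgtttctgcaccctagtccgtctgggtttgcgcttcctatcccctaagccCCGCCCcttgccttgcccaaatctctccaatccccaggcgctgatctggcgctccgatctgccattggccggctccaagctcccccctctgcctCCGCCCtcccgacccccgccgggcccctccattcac
The Kcnj9 window held 1 match to TATAAA, beginning at -168 from the start, and the Kcnj10 window held 2 matches to GGGCGG on the other strand, beginning at -130 and -36. No matches overlapped. Of all 32851 windows of this length, 12.4% held TATAAA and 32.7% held GGGCGG. The windows were 52% G or C for Kcnj9 and 62% for Kcnj10. A match describes letters in a window and says nothing about binding.

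The remaining inward rectifiers were mixed. Kcnj12 (Kir2.2) was higher in sacral, at 2.71 ± 0.30 against 2.29 ± 0.41 in lumbar, in 8 of 10 donors (difference -0.42, SE 0.14, adjusted p = 0.015), a call that quantile normalization ended. Kcnj2 (Kir2.1) lies 38.2 kb from Kcnj16 on chromosome 11 and did not pass the test, with 1.46 ± 0.26 in lumbar and 1.74 ± 0.37 in sacral (difference -0.28, SE 0.13, adjusted p = 0.082), although 9 of 10 donors were higher in sacral and the fit with the donor as a fixed block called it (adjusted p = 0.037). Kcnj13 (Kir7.1) had the largest difference of any member towards lumbar but the thinnest data among those called, with 0 to 74 reads a library. Its values ran from -2.43 to 0.07 with a median of -0.91 in lumbar and from -4.75 to -1.17 with a median of -2.73 in the 9 sacral libraries with reads. One sacral library, of male donor 4, had no reads and was dropped by the fit, and the ranges overlapped (difference 1.73, SE 0.47, adjusted p = 0.0052). Setting that library to 0.5 reads gave a difference of 2.22 (adjusted p = 0.005), and adding 1 RPKM to every value gave 0.41 (adjusted p = 0.0024). Exons of Kcnj13 overlap those of Gigyf2 on the opposite strand. Kcnj11, the pore of the ATP-sensitive channel Kir6.2, lay at -2.20 ± 1.24 in lumbar and -1.16 ± 1.51 in sacral and was not called (difference -1.04, SE 0.54, adjusted p = 0.12). Its donor differences ran from -4.73 to 3.22, and it was called without male donor 2 (-1.5, adjusted p = 0.017) and with 1 RPKM added (-0.31, adjusted p = 0.035). Kcnj8 (Kir6.1, with reads in 18 libraries), Kcnj4 (Kir2.3), Kcnj14 (Kir2.4), Kcnj15 (Kir4.2) and Kcnj5 (GIRK4) were below the filter, with means from -5.02 to -1.46. Of the 9 inward rectifiers tested, 4 were higher in sacral, 3 in lumbar and 2 were not called, where 30.3% and 15.2% of all genes were higher in sacral and lumbar. Kcnj6 and Kcnj9 among the 4 and Kcnj13 among the 3 had passed the filter at 1 level only.

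The two-pore channels gave the largest sacral difference that rested on many reads. Kcnk3 encodes TASK-1, an acid-sensitive leak channel, and lies on chromosome 5 at chr5:30890543-30927643 (mm9). Its lumbar values ran from 1.29 to 2.36 with a median of 1.66 and its sacral values from 2.34 to 3.67 with a median of 3.0. The ranges met at their edges, and every donor was higher in sacral, by 0.57 to 2.04. The fold was 2.48 (difference -1.31, SE 0.16, adjusted p = 4.1e-06) on 350 to 3140 reads a library. Kcnk9 (TASK-3), with which TASK-1 can assemble, was not called (difference 0.19, SE 0.27, adjusted p = 0.58). Within a library Kcnk3 therefore lay 1.64 ± 0.78 above Kcnk9 in lumbar and 3.14 ± 0.80 above it in sacral, a ratio higher in sacral in 10 of 10 donors by 1.51 ± 1.24.

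The mechanosensitive TREK and TRAAK channels were all higher in sacral. Kcnk2 (TREK-1), the two-pore gene with the highest mean over all libraries although level with Kcnk1 in lumbar (2.43 and 2.45), ran from 1.97 to 2.90 with a median of 2.49 in lumbar and from 2.78 to 3.63 with a median of 3.34 in sacral. Only the lowest sacral library fell among the highest lumbar ones, and all 10 donors were higher in sacral (difference -0.85, SE 0.11, adjusted p = 8.4e-06). Kcnk4 (TRAAK) lay at -0.27 ± 0.67 in lumbar and 0.56 ± 0.43 in sacral, again higher in sacral in 10 of 10 donors (difference -0.83, SE 0.23, adjusted p = 0.0056). Kcnk10 (TREK-2) lay at -0.53 ± 0.61 and 0.03 ± 0.60, with 7 of 10 donors higher in sacral (difference -0.56, SE 0.22, adjusted p = 0.042). The Kcnk10 call was near the threshold and was lost with the donor as a fixed block (adjusted p = 0.053), with limma-voom on TMM-scaled reads and in 6 of the 10 fits that each left out 1 donor, those without male donors 2, 3 and 4 and without female donors 2, 3 and 5, where the difference ran from -0.68 to -0.44 over all 10 fits.

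Kcnk5 was the only two-pore gene called higher in lumbar. It encodes TASK-2, an alkaline-activated channel known from epithelia, and ran from 0.20 to 1.72 with a median of 1.10 in lumbar and from -0.59 to 0.94 with a median of 0.16 in sacral. All 10 donors were higher in lumbar (difference 0.84, SE 0.18, adjusted p = 6.2e-04). Relative to the glial marker mean of the same library its difference was -0.05 ± 0.29, with 3 of 10 donors higher in lumbar, and with the glial mean as a covariate it was -0.11 (adjusted p = 0.93). Kcnk1 (TWIK-1) was level, at 2.45 ± 0.39 in lumbar and 2.41 ± 0.36 in sacral (difference 0.05, SE 0.13, adjusted p = 0.8). Kcnk12 and Kcnk13, the THIK channels, had differences of -0.43 and -0.42 and were not called (adjusted p = 0.15 and 0.11). Kcnk18 encodes TRESK, a calcineurin-regulated leak channel of sensory neurons, and lay at 1.13 ± 0.70 in lumbar and 1.37 ± 1.11 in sacral, where single libraries ran from -1.20 to 2.68 (adjusted p = 0.52). Kcnk6 and Kcnk7 were below the filter. Of the 10 two-pore genes tested, 4 were higher in sacral, 1 in lumbar and 5 were not called, close to the 45.5% of all genes that were called.

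**Figure D3:**
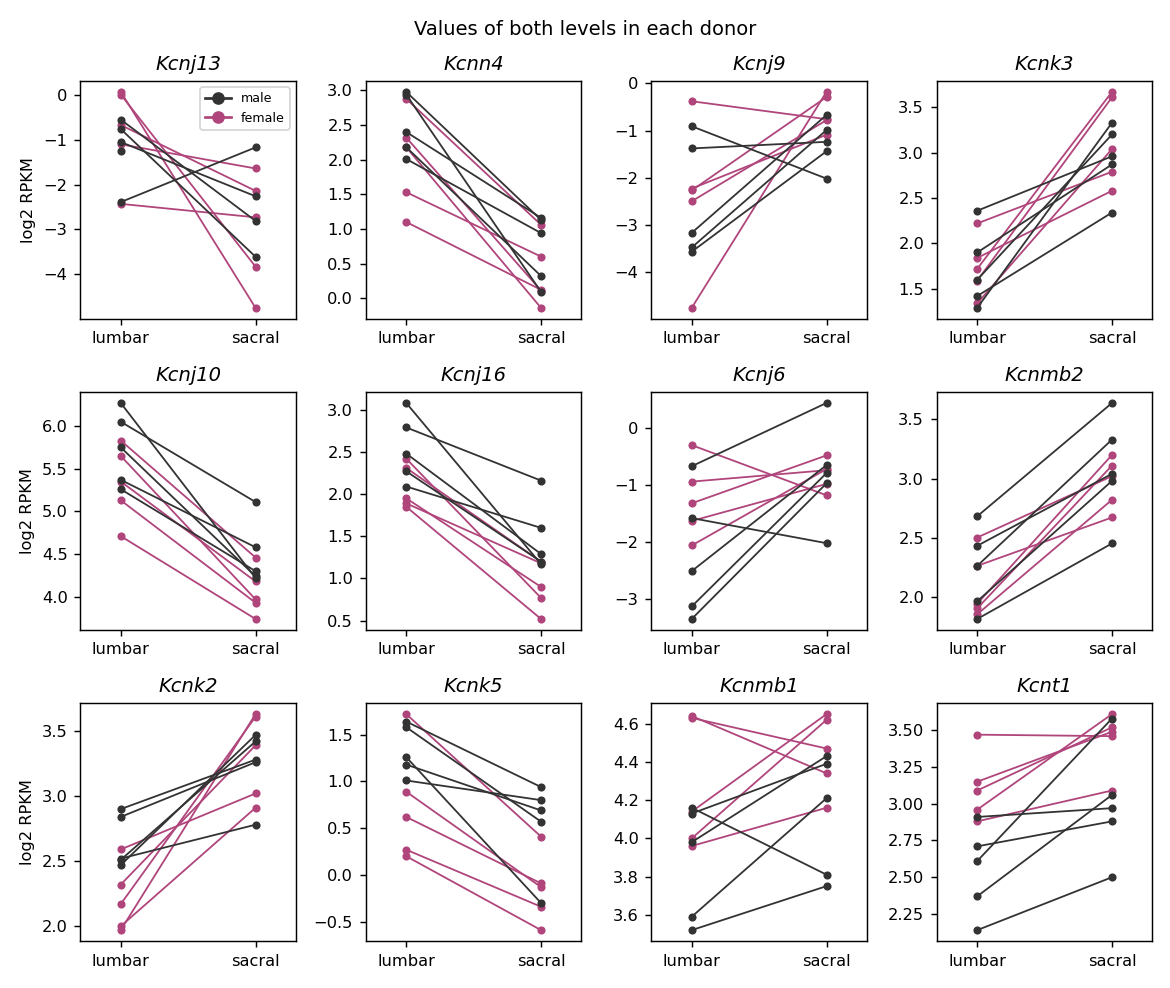
Level (log2 RPKM on the y axis, each panel on its own scale) in the lumbar and sacral library of each donor, joined by a line, for the 10 called members with the largest differences and for Kcnmb1 and Kcnt1. All lines of Kcnk2, Kcnk3 and Kcnmb2 rise towards sacral and all lines of Kcnj10, Kcnj16, Kcnk5 and Kcnn4 fall, while lines of Kcnj6, Kcnj9 and Kcnj13 cross.

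The BK channel is built from the pore gene Kcnma1 and tissue-specific β subunits that set its calcium sensitivity and inactivation. The pore was not called between levels, at 2.09 ± 0.42 in lumbar and 2.40 ± 0.35 in sacral (difference -0.31, SE 0.15, adjusted p = 0.1). Its β subunits did not share a direction. Kcnmb2 encodes β2, which gives the channel fast inactivation, and ran from 1.81 to 2.68 with a median of 2.11 in lumbar and from 2.45 to 3.64 with a median of 3.03 in sacral. Every donor was higher in sacral, by 0.41 to 1.26 (difference -0.87, SE 0.12, adjusted p = 2.1e-05). Kcnmb4 encodes the neuronal β4 subunit, which slows gating, and was higher in lumbar in 8 of 10 donors, at 1.46 ± 0.48 against 0.99 ± 0.48 (difference 0.47, SE 0.19, adjusted p = 0.045). The Kcnmb4 call held in 3 of the 10 fits that left out 1 donor and was lost without male donors 1, 2 and 3 and without female donors 1 to 4, where the difference ran from 0.36 to 0.56 over all 10 fits. Exons of Kcnmb4 overlap 1700058G18Rik and 4933400F03Rik on the opposite strand. Kcnmb1, the β1 subunit best known from smooth muscle, was the most abundant BK gene, from 3.52 to 4.64 with a median of 4.06 in lumbar and from 3.75 to 4.65 with a median of 4.37 in sacral. The ranges were nearly the same and it was not called (difference -0.21, SE 0.11, adjusted p = 0.14). It lay above the pore gene in the same library by 1.98 ± 0.29 in lumbar and 1.89 ± 0.24 in sacral. The smooth muscle markers Acta2 and Tagln were at 3.16 and 1.53 in lumbar and 1.55 and 0.82 in sacral libraries, with differences of 1.61 and 0.71 towards lumbar. Of the 10 mural and endothelial markers that include them, 8 were higher in lumbar and 1 in sacral. The latter was Rgs5, the most abundant, at 6.76 in lumbar and 7.13 in sacral (difference -0.37, adjusted p = 0.015 in limma). The part of these markers in the level of Kcnmb1 was not tested. Relative to Kcnma1, Kcnmb2 differed by -0.56 ± 0.54 and was higher in sacral in 7 of 10 donors, while Kcnmb4 differed by 0.78 ± 0.58 and was higher in lumbar in 8 of 10.

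The calcium-activated channels of small conductance and that of intermediate conductance diverged. Kcnn4 encodes the IK channel KCa3.1, a calmodulin-gated channel of blood cells, epithelia and glia as well as neurons, and lies on chromosome 7 at chr7:25155282-25170228 (mm9). Its lumbar values ran from 1.10 to 2.98 with a median of 2.25 and its sacral values from -0.14 to 1.16 with a median of 0.46. A single lumbar library lay below the highest sacral ones, and all 10 donors were higher in lumbar, by 0.93 to 2.86. The fold was 3.28 (difference 1.71, SE 0.20, adjusted p = 3.0e-06). Relative to the glial marker mean the difference was 0.82 ± 0.65 and higher in lumbar in 9 of 10 donors, a description with no test. With the glial mean as a covariate the difference was 1.35 (adjusted p = 0.11), in a fit where this covariate and the level cannot be told apart. The 250 bases before its start on GRCm38.p6, at chr7:24370013-24370262 (plus strand), are shown because Kcnn4 had the largest lumbar difference that rested on more than 100 reads in each library (132 to 938), with capitals as above.
Kcnn4: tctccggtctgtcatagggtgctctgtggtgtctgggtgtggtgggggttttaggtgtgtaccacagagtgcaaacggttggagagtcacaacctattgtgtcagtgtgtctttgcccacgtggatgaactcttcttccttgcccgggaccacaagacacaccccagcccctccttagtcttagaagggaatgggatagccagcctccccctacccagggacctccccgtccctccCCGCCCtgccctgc
The window held 1 match to GGGCGG on the other strand, beginning at -14, and was 58.8% G or C. Of the members, 29 had an entry in the RefSeq table, with 38 windows in all, of which 42.1% held GGGCGG, 23.7% CAGCTG, 7.89% TATAAA, 7.89% AACAAAG and 0% TGACGTCA, where all windows gave 32.7%, 13%, 12.4%, 5.03% and 1.55%. Several windows belong to 1 gene and are not independent. Kcnj11, Kcnj14, Kcnk3, Kcnk6, Kcnk9, Kcnn2 and Kcnt1 had no entry.

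The SK channels carry the afterhyperpolarization that follows an action potential. Kcnn1 (SK1) was higher in sacral in 10 of 10 donors, at 1.79 ± 0.45 against 0.98 ± 0.53 in lumbar (difference -0.81, SE 0.18, adjusted p = 0.0014). Kcnn2 (SK2) was higher in sacral in 9 of 10 donors, at 0.91 ± 0.40 against 0.29 ± 0.35 (difference -0.62, SE 0.14, adjusted p = 0.0013). Kcnn3 (SK3) lay at 0.16 ± 0.43 in lumbar and 0.54 ± 0.40 in sacral and was not called (difference -0.38, SE 0.17, adjusted p = 0.077).

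Of the sodium-activated pair, only Kcnt1 passed the test. Kcnt1 encodes Slack, a channel that restrains firing in DRG neurons, and ran from 2.14 to 3.47 with a median of 2.89 in lumbar and from 2.50 to 3.61 with a median of 3.28 in sacral. The ranges overlapped widely, but 9 of 10 donors were higher in sacral (difference -0.39, SE 0.11, adjusted p = 0.0076), a call that quantile normalization ended. Kcnt2 (Slick) lay at 0.37 ± 0.48 and 0.50 ± 0.49 and was not called (difference -0.13, SE 0.18, adjusted p = 0.59). Their ratio within a library was 2.45 ± 0.59 in lumbar and 2.71 ± 0.72 in sacral, with 5 donors each way, so the pair was not shown to differ in its level difference.

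**Figure D4:**
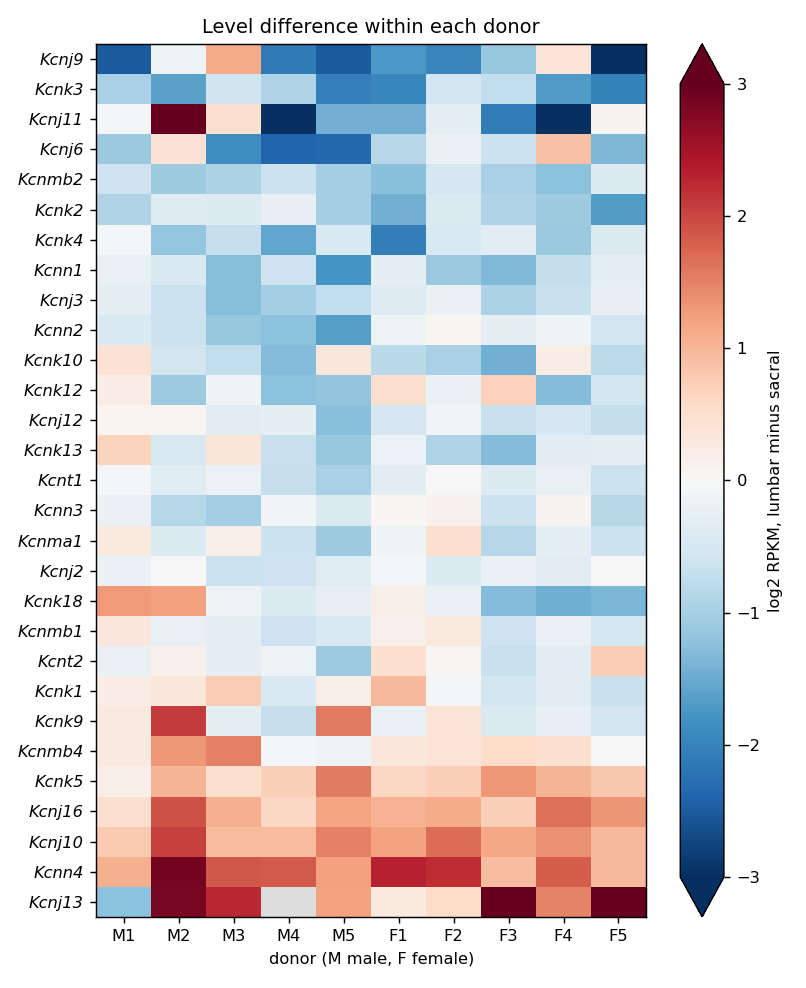
Difference in log2 RPKM between the lumbar and the sacral library of each donor (M male, F female), with the 29 tested members ordered by their fitted difference; blue is higher in sacral, red higher in lumbar and grey a donor without reads at one level. Kcnk3, Kcnmb2 and Kcnk2 are blue in all 10 donors, Kcnn4, Kcnj10, Kcnj16 and Kcnk5 red in all 10, and Kcnj9, Kcnj11 and Kcnj13 hold both strong blue and strong red cells.

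The same direction held for 10 members in all 10 donors, with Kcnj3, Kcnk2, Kcnk3, Kcnk4, Kcnmb2 and Kcnn1 towards sacral and Kcnj10, Kcnj16, Kcnk5 and Kcnn4 towards lumbar. They were 10 of the 28 tested members with a value in every library, or 35.7%, where 21.2% of all such genes had 1 direction in all donors. In no member were the lumbar and sacral ranges fully apart, and the share of all genes with separate ranges was not computed.

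The differences were also fitted under a scaling to neuronal markers and with a glial covariate, and the part of the make-up of the sorted cells was not tested. When values were set against the mean of the 5 pan-neuronal markers in the same library, a scaling chosen after the data were seen, 3 members were called higher in sacral, namely Kcnk3 (difference -0.83), Kcnmb2 (-0.38) and Kcnk2 (-0.36), and 9 higher in lumbar. These were 41.4% of the tested members where 57.2% of all genes were called, 10.3% against 3.94% towards sacral and 31% against 53.2% towards lumbar. The 9 were the 6 named above together with Kcnk1 (0.53), Kcnk9 (0.68) and Kcnmb1 (0.27). Kcnk3 and Kcnmb2 then remained higher in sacral in 10 of 10 donors and Kcnk2 in 7 of 10, while Kcnj3 was higher in sacral in 6 of 10 (-0.15), Kcnj12 in 5 (0.06) and Kcnt1 in 3 (0.10). When the glial marker mean was a covariate in the fit, no member was called over both sexes, and 117 of 16304 genes, or 0.718%, were. Some differences were as large as before, such as those of Kcnj9 (-1.87), Kcnj13 (2.24) and Kcnn2 (-1.02). Kcnj9 and Kcnj13 had passed the filter at 1 level only and rested on 7 to 195 and 0 to 74 reads a library. The glial mean and the level go together in every donor, so this covariate and the level cannot be told apart by these libraries. The same fit gave opposite signs for Kcnj3 (0.15), Kcnj12 (0.12), Kcnt1 (0.04), Kcnk5 (-0.11) and Kcnmb4 (-0.20) and kept the signs of the other 13 called members.

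**Figure D5:**
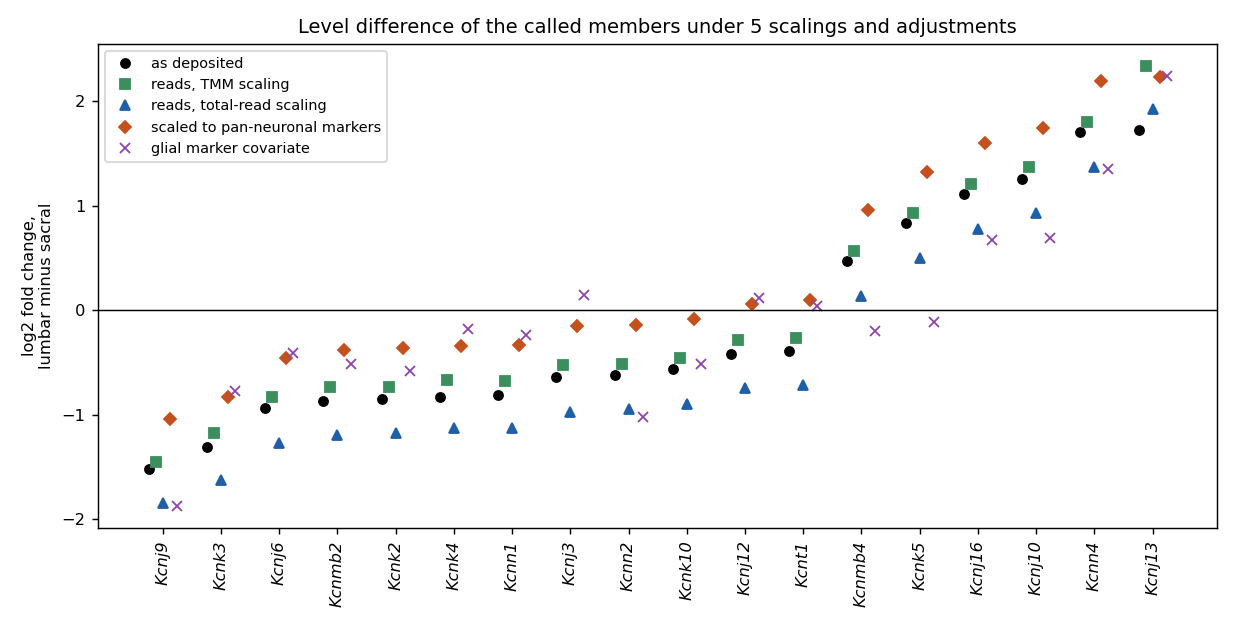
Difference between levels (log2 fold change on the y axis, lumbar minus sacral) of the 18 called members under the deposited scaling, limma-voom fits on the reads worked back from the values with 2 scalings, a scaling to 5 pan-neuronal markers and a fit with the glial marker mean as a covariate. Kcnk3 stays below 0 in each, from -1.63 to -0.77, and Kcnn4 above 0, from 1.35 to 2.20, while Kcnj3, Kcnj12, Kcnk5, Kcnmb4 and Kcnt1 cross 0.

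In males 12 of the 29 tested members, or 41.4%, were called between levels, where 29.5% of all genes were, and in females 11, or 37.9%, where 24.8% of all genes were. In both sexes 8 were called, Kcnj10, Kcnj16, Kcnk2, Kcnk3, Kcnk5, Kcnmb2, Kcnn1 and Kcnn4. The share of all genes called in both sexes was not computed. A call in one sex and not the other does not show a difference between the sexes. The test of the difference itself, the sex by level interaction, called 0% of all 16304 genes and 0 of 29 members in limma. At an unadjusted p under 0.05 it gave 2 members and 658 genes, or 4.04%, and the limma-voom fit on reads with TMM scaling also called 0 members. The 2 were Kcnn2, with a level difference of -1.02 in males and -0.22 in females (unadjusted p = 0.0092, limma), and Kcnk2, with -0.59 in males and -1.10 in females (unadjusted p = 0.031, limma). Both had an adjusted p of 1.

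Females and males were also compared at each level. Of all genes 0.0427% were called in lumbar and 0.0368% in sacral ganglia, and 0 of 29 members were called at either, also by the limma-voom fit. At an unadjusted p under 0.05 there were 9 members in lumbar, where 11.4% of all genes fell, and 6 in sacral, where 8.09% did. Kcnk12 (THIK-2) had the lowest p in lumbar, with females above males by 1.33 (unadjusted p = 0.0017) and by 0.83 in sacral. Kcnk18 had the lowest p in sacral, with females above males by 1.36 (unadjusted p = 0.0066) and by 0.19 in lumbar. Kcnt1 and Kcnj3 were above in females at both levels, by 0.56 and 0.43 for Kcnt1 and by 0.83 and 0.53 for Kcnj3. Kcnk5 and Kcnj16 were below at both, by -0.59 and -0.69 for Kcnk5 and by -0.46 and -0.57 for Kcnj16. The glial marker mean was 6.77 ± 0.30 in male and 6.41 ± 0.33 in female lumbar libraries and 5.88 ± 0.39 and 5.51 ± 0.38 in sacral ones (SD, n = 5 each), and its part in these values was not tested.

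Genes of proteins that bind or modulate these channels were mostly higher in sacral as deposited, as the pan-neuronal markers were. Of 30 partner genes 26 were tested, 19 were higher in sacral, 1 in lumbar and 6 were not called, where 30.3% and 15.2% of all genes were higher in sacral and lumbar, with a median difference of -0.34 against -0.11 over all genes. The split depended on the scaling, for the partners as for all genes. Against the pan-neuronal markers 1 of the 26 was higher in sacral and 11 in lumbar, with a median of 0.14. Of all genes, 3.94% were then higher in sacral and 53.2% in lumbar, with a median of 0.37. The largest sacral differences were those of Lrrc55 (-0.84, adjusted p = 0.019), a BK γ subunit, Ano3 (-0.79, adjusted p = 4.7e-04), a partner of Slack in nociceptors, Rgs4 (-0.63, adjusted p = 5.7e-04), which speeds the closing of GIRK channels, and Ppp3ca (-0.49, adjusted p = 7.2e-04), a calcineurin subunit that acts on TRESK. Pld2, a phospholipase that binds TREK channels, was the one partner higher in lumbar (0.47, adjusted p = 0.017). Exons of Lrrc55, Ano3 and Pld2 overlap other genes on the opposite strand. Among the sulfonylurea receptors that complete the ATP-sensitive channel, Abcc9 lay at -0.86 ± 1.05 in lumbar and -1.61 ± 0.95 in sacral and was not called (adjusted p = 0.12), and Abcc8 was below the filter at -2.02 ± 0.78 and -1.39 ± 0.91. The other BK γ subunits were scarce, with reads in 16 libraries for Lrrc26, 9 for Lrrc52 and 4 for Lrrc38. Of the family genes outside the 36, Kcnu1 was tested and not called (-0.29, adjusted p = 0.42), while Kcnj1, Kcnk15 and Kcnmb3 had reads in at most 2 libraries and Kcnk16 in 12.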

How the data were processed

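RNA from sorted Trpv1 reporter neurons was amplified (NuGEN Ovation RNA-Seq System v2), made into Nextera XT libraries and sequenced on a HiSeq2500. Per the submitters' processing notes and the study's methods, reads were aligned with Subread to mm9, counted with featureCounts against Ensembl genes, and normalised by the authors. The deposited values are log2 RPKM with no pseudocount, every library has the same median (0.93), and an empty cell stands for no reads. Reads worked back from the values were whole within 0.01 for 27506 of 27999 genes and gave the depths above. Coordinates are those of the gencode annotation of NCBIM37, which matched 37205 of 37620 genes.

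Genes with a mean above -1 in at least 1 group of at least 3 values were fitted in limma 3.58.1 (R 4.3.3), with group means, a variance trend and the donor as a random block through duplicateCorrelation (0.17), with Benjamini-Hochberg adjustment over all genes tested. The animal numbers in the labels pair the libraries, and deviations of paired libraries correlated by 0.18 on average (0.04 to 0.30) against -0.04 for other donors of the same sex. The script was tested on simulated data. The labels do not say whether a pair of animal numbers is a pool of animals, so p-values measure the spread between these samples. Alternatives changed the filter, pseudocount, scaling, blocking, threshold and donors, or added the glial covariate. The members and lists were chosen with earlier results of these data known. All 36 members are named, with values per library for the 10 largest called differences and the most abundant gene of each subfamily, and partners are named where called, up to 4 in each direction, with Abcc8, Abcc9 and Ano3. Ratios between channel subunits are descriptions over donors, with no test.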

Additional observations from a re-analysis of the deposited data

Results flagged for a closer look

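In 5 of the 134 groups examined, 1 library of a group of 5 stood apart from the other 4 by Dixon's gap ratio. Chance flags about 1 in 20 groups, which would be 6.7 here, so these are values to look at and nothing more. Male donor 4 supplied 2 of them in its lumbar library, Kcnj11 at -4.86 on 5 reads, against -2.15 to -1.45 in the other male lumbar libraries, and Kcnk4 at -1.53 on 28 reads, against -0.05 to 0.19. Kcnn2 was at -0.40 in the lumbar library of male donor 5, against 0.14 to 0.29 in the others. Kcnj4 was at -2.39 on 21 reads in the sacral library of male donor 1, against -1.32 to -1.05. Kcnt1 was at 3.09 in the sacral library of female donor 4, against 3.46 to 3.61. Without male donor 4 or male donor 5, Kcnk4 and Kcnn2 stayed called between levels, while the difference of Kcnj11, not called, went from -1.04 to -0.51 without male donor 4. No member had all males moving one way and all females the other.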

How the results depend on the processing

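The count of members called between levels was 18 as reported, 12 to 19 under the alternatives other than limma-voom on reads with total-read scaling (26) and the glial marker covariate (0), and 15 to 18 when 1 donor was left out. The members tested were 29, except with the filter at 0 (15 called of 24) and without the filter (16 of 36). Of all genes 7418 of 16304 were called as reported, 7039 of 14080 with the filter at 0 and 7392 of 22558 without it. Total-read scaling called 10749 of 16000 genes and the glial covariate 117 of 16304. With the total-read fit, which changes the model as well as the scaling and moved the median of all genes to -0.43, 21 members were higher in sacral, 22 were called in males and 22 in females. Of the 16000 genes in that fit, 9373 were higher in sacral. With the glial covariate 0 members were higher in sacral, 0 in lumbar, 1 (Kcnn2) was called in males, 0 in females and 0 of the partner genes. With scaling to the pan-neuronal markers, added after seeing the data, which moved the median of all genes to 0.37, 3 members were higher in sacral and 12 partners were called (14 with quantile normalization, 15 with limma-voom on TMM-scaled reads). At an adjusted p of 0.01, 14 members were called, 7 in males and 6 in females. The shares of all genes at that threshold, and in each sex under the alternatives, are not given here. With no replicate block 16 members were called, Kcnk10 and Kcnmb4 being lost, and with the donor as a fixed block 18, Kcnk10 being lost and Kcnj2 gained. Of all genes 6577 of 16304 were called with no block and 7157 of 16295 with the fixed block. Kcnk10 was also lost with limma-voom on TMM-scaled reads and without the filter, and Kcnmb4 with limma-voom on total-read scaling, without the variance trend and without the filter. Leaving out 1 donor gave 7 to 13 calls in males (7 without male donor 5) and 7 to 11 in females (7 without female donor 3). Differences of called members, or with a call at the other sign, that changed sign were those of Kcnj3 (0.15), Kcnj12 (0.12), Kcnk5 (-0.11), Kcnmb4 (-0.20) and Kcnt1 (0.04) with the glial covariate, of Kcnj12 (0.06), Kcnmb1 (0.27) and Kcnt1 (0.10) against the pan-neuronal markers, and of Kcnk1 (-0.30) with limma-voom on total-read scaling. Of members called neither as reported nor there, 7 changed sign against the pan-neuronal markers and 8 with the glial covariate. Adding 1 RPKM shrank Kcnj6 to -0.25, Kcnj9 to -0.31 and Kcnj13 to 0.41, all still called. The cause was not tested. Of all called genes 66.6% were higher in sacral as deposited, 50.3% with limma-voom on TMM-scaled reads, 52.9% with quantile normalization, 87.2% with limma-voom on total-read scaling and 6.9% against the pan-neuronal markers. For the called members the split was 66.7%, 64.7%, 64.7%, 80.8% and 25%. Read depth was thin for Kcnj13 (0 to 74 reads a library), Kcnk9 (24 to 115), Kcnk12 (13 to 160) and Kcnj9 (7 to 195).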
